A study of Mus musculus with 7 samples.

Results

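Fatty acid oxidation and ketogenesis genes were read in the livers of 7 mice, 4 wild types and 3 that lack C3ar1, which encodes a receptor of the complement peptide C3a. The 32 genes were chosen by name, as enzymes and targets of mitochondrial and peroxisomal β-oxidation, ω-oxidation, ketone body metabolism and the nuclear receptor PPARα. Of these, 31 had at least 1 probe in the platform's annotation, with 33 probes in all out of 23574 on the array. Acsl1, the acyl-CoA synthetase of fatty acid activation, had no named probe. Bdh1 is the only member of the ketone body branch.

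The wild types, numbered 1 to 4, were littermates of the C3ar1-/- mice, which are numbered 2 to 4, and both groups were fed a chow diet. Each array compared the liver of 1 mouse with a common pool made from 6 wild-type livers. Sex, age, strain background, hour of death and the form of the C3ar1 allele are not given in the sources used here. Every value below is a log ratio of a mouse against the pool, taken as log10. Neither the base nor the direction of the ratio is stated. The ratio probably sets mouse over pool, going by how the titles are worded; were it the reverse, every sign would turn. A ratio within 1 probe gives no level, so genes are not ranked by abundance, and whether a probe read above background is unknown.

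Liver cells burn fatty acids in mitochondria, where the carnitine shuttle admits long chains, and in peroxisomes, which shorten very long chains. The acetyl-CoA formed in mitochondria can leave the liver as ketone bodies during fasting. PPARα, a receptor activated by fatty acids, raises transcription of many genes of these pathways, with the Cyp4a, Acot, Vnn1 and Pex11a genes among its responsive targets in mouse liver. ω-oxidation by Cyp4a enzymes starts at the methyl end of the chain and takes place in the endoplasmic reticulum.

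The probe of C3ar1 did not separate the groups. It read -0.0296, -0.0318, 0.0225 and 0.0264 in wild types 1 to 4, and 0.00420, 0.0337 and 0.0514 in knockouts 2 to 4, a difference of 0.0329 ± 0.0233 (SE). The part of the gene it covers and its signal over background are unknown, so this probe gives no check of the labels, and the livers labelled C3ar1-/- are called knockouts by their label alone. Over all probes the arrays had SDs of 0.0466 to 0.0676, except for 0.0975 in knockout liver 2. The labels do not say which mice shared a litter or how they were sampled. The p-values set the genotype difference against the spread within the groups of these 7 samples, and limma also draws on the spread of all probes.

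No member was called between the genotypes, and the members varied widely from mouse to mouse. No member probe passed the test of knockout against wild type (limma, Benjamini-Hochberg adjusted over all probes, threshold 0.05), where 0.00424% of all probes were called. The smallest adjusted p among the 33 probes was 0.884. At an unadjusted p under 0.05 limma listed 1 member probe, 3.03% of them, against 4.47% of all probes, and the listed one read lower, as did 2.61% of all probes. The ordinary linear model also called 0, and so did limma on genes, where 0.00607% of all genes were called. The median range over the 7 livers was 0.30 for the member genes and 0.105 for all 16468 named genes, and the median absolute genotype difference was 0.0560 and 0.0223. A range above 0.3 was seen in 16 of 31 members and in 6.75% of all genes.

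Most members read lower in the knockouts, and this rested on 1 liver. The difference was below 0 in 23 of 31 genes, 74.2%, against 43.3% of all genes, with a median of -0.0371 against 0.00543. Without knockout liver 4 it was below 0 in 11 of 31, 35.5%, against 43.3% of all genes, and the median was 0.0249. With the other single livers left out it ranged from 17 to 27 genes. The range among the 4 wild types exceeded the size of the genotype difference in all 31 members, which also holds for 93.0% of all genes. The groups of mice did not overlap in 2 member probes, 6.06%, against 5.26% of all probes.

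**Figure D1:**
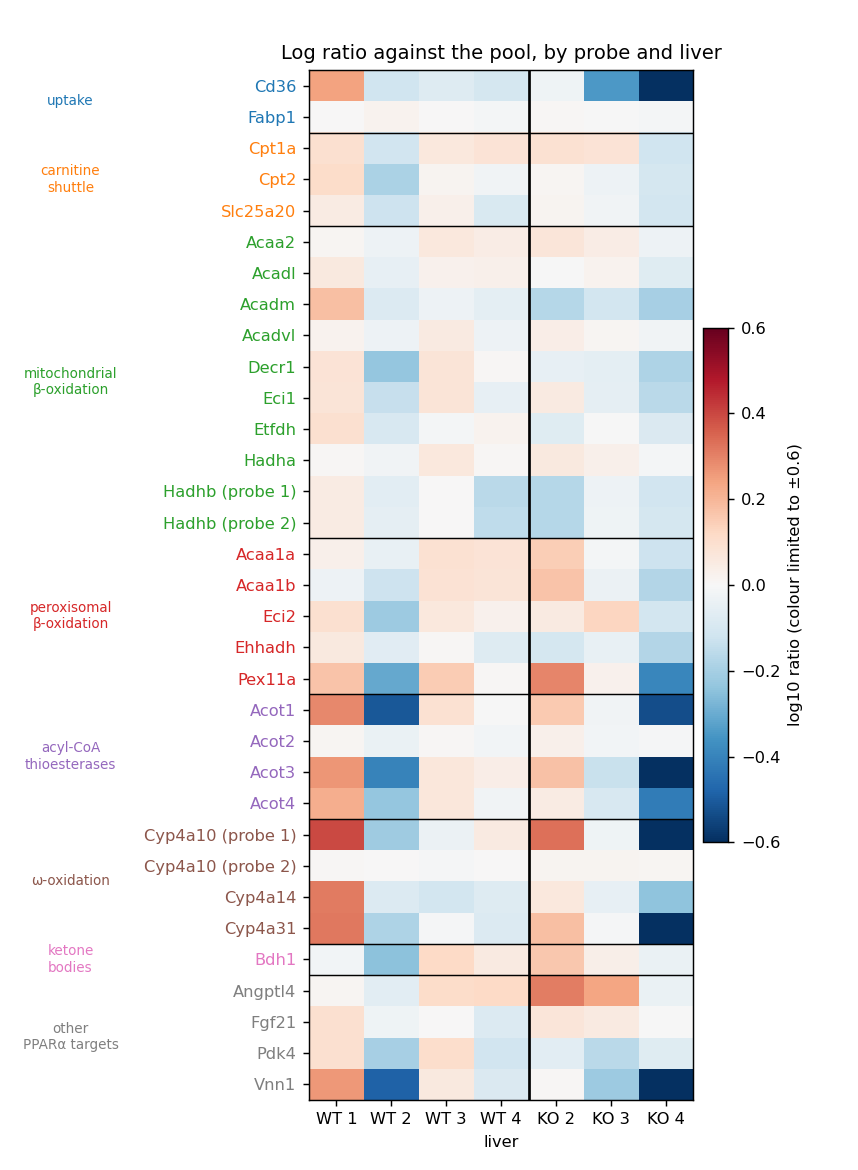
Log10 ratio against the pool of each of the 33 member probes (rows, grouped by role) in the 4 wild-type (WT) and 3 knockout (KO) livers (columns), with colours limited to ±0.6. Wild-type liver 2 and knockout liver 4 are the blue columns, while Fabp1 and probe 2 of Cyp4a10 hardly leave 0 in any liver.

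The low values fell in the same livers, 1 of each genotype. Knockout liver 4 was the lowest of the 7 in 17 member genes and wild-type liver 2 in 11, together 90.3%, against 37.3% of all genes. In 21 of 31 these livers held both of the lowest places, against 6.83% of all genes. Wild-type liver 1 was the highest in 19 of 31, 61.3%, against 14.0% of all genes, and knockout liver 2 was the highest in 7. These livers were singled out after their values were seen. The mean over the 31 genes was 0.112, -0.149, 0.0407 and -0.0145 in wild-type livers 1 to 4, and 0.0562, -0.0249 and -0.216 in knockout livers 2, 3 and 4. The lowest and the highest wild type were thus 0.261 apart, while the genotype means were -0.00265 ± 0.11 (SD, n = 4) and -0.0617 ± 0.140 (SD, n = 3). In whole liver, fewer cells of a type and less RNA per cell cannot be told apart.

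Cd36, which encodes a membrane transporter of long-chain fatty acids, had the largest genotype difference of the members. It read 0.243, -0.118, -0.0753 and -0.107 in wild-type livers 1 to 4, and -0.0256, -0.342 and -0.745 in knockout livers 2 to 4. Wild-type liver 1 stood above all others and knockout livers 3 and 4 below all wild types, while knockout liver 2 lay above 3 of the 4 wild types. The difference was -0.357 ± 0.164 (SE), or 2.27-fold taken in base 10, and its 95% interval was -0.739 to 0.0255 (limma, adjusted p = 0.884). Without knockout liver 4 it was -0.170. Fabp1, the abundant fatty acid binding protein of hepatocytes, had the smallest range of the member genes, 0.0334, and 2.47% of all genes had a smaller one. Its values ran from -0.0138 to 0.0196, with a difference of -0.00228 ± 0.0167.

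Fabp1 was also the only one of the 25 members with a window whose sequence before the start held a direct repeat of the kind that PPARα with its partner RXR can bind. The window is shown because this gene, a textbook PPARα target, had the smallest range of the member genes. The motif searched was AGGNCA followed by any base and AGGNCA again, on both strands, in the 250 bases before each RefSeq start of GRCm38.p6, where 0.338% of 32851 windows hold it. Of the 32 members, 25 had a window, and Acaa2, Decr1, Cyp4a10, Cyp4a14, Cyp4a31, Vnn1 and Angptl4 had none in the table. The shorter letters AGGTCA, which such repeats contain, were in the windows of Acadm, Acadvl, Acot4, Cd36, Cpt1a and Fabp1, and in 14.0% of all windows. The Fabp1 window lies at chr6:71199629-71199878 on the + strand, upstream of the gene and outside its exons, and capitals mark the match, which is on the opposite strand:
Fabp1: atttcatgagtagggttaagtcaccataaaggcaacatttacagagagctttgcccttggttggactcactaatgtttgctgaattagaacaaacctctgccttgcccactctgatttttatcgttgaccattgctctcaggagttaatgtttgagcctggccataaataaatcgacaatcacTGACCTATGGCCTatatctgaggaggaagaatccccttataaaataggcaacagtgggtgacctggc

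The carnitine shuttle genes read nearly the same in the genotypes. Cpt1a, the rate-controlling outer-membrane transferase, read 0.0946, -0.117, 0.0616 and 0.0817 in the wild types, and 0.0928, 0.0843 and -0.12 in knockouts 2 to 4. Wild-type liver 2 and knockout liver 4 were thus about equally low, and the remaining 5 lay between 0.0616 and 0.0946. The difference was -0.0111 ± 0.0685, with an interval from -0.170 to 0.148. Cpt2, the inner-membrane transferase, had the widest range of the 3 genes: 0.109, -0.191, 0.0170 and -0.0220 in the wild types, and 0.0110, -0.0300 and -0.105 in the knockouts. Its difference was -0.0194 ± 0.0660, and wild-type liver 2 was the lowest of all. Slc25a20, the carnitine carrier, differed by -0.00327 ± 0.0506.

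Among the 9 genes of mitochondrial β-oxidation, 6 had a difference below 0 and none passed. Acadm, the medium-chain acyl-CoA dehydrogenase, was the member with the smallest p. It read 0.179, -0.0832, -0.0323 and -0.0572 in the wild types, and -0.170, -0.111 and -0.197 in the knockouts. All 3 knockouts lay below all 4 wild types, as in 2.54% of all probes. The difference was -0.161 ± 0.0619 (SE), or 1.45-fold taken in base 10, and its interval was -0.305 to -0.0171 (limma, adjusted p = 0.884). It ranged from -0.189 to -0.102 when single mice were left out, and was -0.102 without wild-type liver 1, the highest of the 7.

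Acadm lies on chromosome 3 at 153922353 to 153944643 in GRCm38.p6. Its window, chr3:153944644-153944893 on the - strand, is shown because this gene alone of the members with a window separated the genotypes. It holds AGGTCA once, on the opposite strand and at the far end from the start, in capitals:
Acadm: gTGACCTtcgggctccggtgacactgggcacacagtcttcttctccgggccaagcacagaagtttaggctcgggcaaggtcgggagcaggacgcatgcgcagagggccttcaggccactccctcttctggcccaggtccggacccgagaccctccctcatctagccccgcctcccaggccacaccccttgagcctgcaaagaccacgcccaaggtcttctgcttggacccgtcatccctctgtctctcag

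The dehydrogenases for longer chains had smaller differences. Acadl, for long chains, differed by -0.0351 ± 0.0332, and Acadvl, for very long chains, by 0.00829 ± 0.0278. Decr1, the reductase needed for unsaturated chains, differed by -0.0823 ± 0.0777 and was low in wild-type liver 2 (-0.230) and knockout liver 4 (-0.186). Eci1, a double-bond isomerase, and Etfdh, which passes electrons to ubiquinone, differed by -0.0450 ± 0.0679 and -0.0560 ± 0.0445. Acaa2, the mitochondrial thiolase, differed by 0.00528 ± 0.0330.

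Hadha and Hadhb encode the α and β subunits of the mitochondrial trifunctional protein, and their values differed most in wild-type liver 4 and knockout liver 2. Hadha stayed between -0.0215 and 0.0649 in all 7 livers. The 2 probes of Hadhb lay within 0.0095 of each other in each liver, and their mean reached -0.157 in wild-type liver 4 and -0.170 in knockout liver 2. Hadha exceeded Hadhb by 0.165 in the former and 0.229 in the latter, and the difference was below 0 in wild-type liver 1 alone, at -0.0409. The genotype difference was 0.0113 ± 0.0271 for Hadha and -0.0611 ± 0.0532 and -0.0610 ± 0.0527 for the probes of Hadhb. The subunit genes lie head to head on chromosome 5, with 272 bases between their starts, and the window before Hadhb, chr5:30155003-30155252 on the + strand, covers most of that stretch. It is shown because it lies between the starts of both genes, which run in opposite directions, and it held neither motif:
Hadhb: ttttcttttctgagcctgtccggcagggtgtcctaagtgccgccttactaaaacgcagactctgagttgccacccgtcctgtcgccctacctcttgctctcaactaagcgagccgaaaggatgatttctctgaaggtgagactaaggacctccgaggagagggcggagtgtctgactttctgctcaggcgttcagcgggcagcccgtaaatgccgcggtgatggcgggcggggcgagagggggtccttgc

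Peroxisomal members had wider ranges than mitochondrial ones, with a median of 0.348 over 5 genes against 0.191 over the 9 genes of mitochondrial β-oxidation. Ehhadh, the peroxisomal bifunctional enzyme, read 0.0577, -0.0677, 0.00830 and -0.0760 in the wild types, and -0.105, -0.0464 and -0.177 in the knockouts. Knockout livers 2 and 4 were below all wild types, and liver 3 lay among them. The difference was -0.0898 ± 0.0426 (SE), with an interval from -0.189 to 0.00921 (limma, adjusted p = 0.884). Acaa1a and Acaa1b are near-identical thiolase genes, so their probes may share signal and are reported as uncertain. Acaa1b read -0.0285, -0.125, 0.0880 and 0.0793 in the wild types, and 0.170, -0.0355 and -0.178 in the knockouts, so that the knockouts held both extremes. The differences were -0.0371 ± 0.0628 for Acaa1a and -0.0180 ± 0.0851 for Acaa1b.

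Pex11a, a membrane protein of peroxisome division, had the widest range of the peroxisomal genes, 4.85-fold in base 10. It read 0.171, -0.306, 0.154 and 0.00880 in the wild types, and 0.293, 0.0251 and -0.393 in the knockouts. Knockout livers 2 and 4 lay on opposite sides of every wild type, and the difference was -0.0320 ± 0.173, with an interval from -0.433 to 0.369. Eci2, the isomerase found in peroxisomes, differed by 0.0325 ± 0.0852. In knockout liver 2 Ehhadh, at -0.105, stood apart from the other 4 genes of this arm, which read 0.0552 or more.

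The mitochondrial and peroxisomal arms were then set side by side in each liver. The mitochondrial arm is the mean of the shuttle and β-oxidation genes, 12 in all, and the peroxisomal arm the mean of the 5 genes above. In wild-type livers 1 to 4 the mitochondrial arm was 0.0694, -0.0975, 0.0358 and -0.0177, and the peroxisomal arm was 0.0663, -0.153, 0.0813 and 0.0240. In knockout livers 2 to 4 the mitochondrial arm was -0.00944, -0.00894 and -0.102, and the peroxisomal arm was 0.112, 0.0116 and -0.196. Both arms were lowest in wild-type liver 2 and knockout liver 4. They parted most in knockout liver 2, where the mitochondrial minus the peroxisomal arm was -0.121, and in knockout liver 4, where it was 0.0945. Pex11a, a protein of peroxisome division rather than oxidation, counts among the 5 peroxisomal genes and read 0.293 and -0.393 there. Acaa1a and Acaa1b, whose probes may share signal, also count among them. The arms were not compared without these genes.

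The difference between the arms did not separate the genotypes. It was -0.00720 ± 0.0472 (SD, n = 4) in the wild types and -0.0158 ± 0.108 (SD, n = 3) in the knockouts, so that the genotypes differed by -0.00858. This small value rested on single livers, since it was -0.0637 without knockout liver 4 and 0.0442 without knockout liver 2, and it was 0.0423 with Acot2 to Acot4 added to the arms. The arms themselves differed by -0.0375 and -0.0289, both within 1 SD of the wild types (0.0728 and 0.108). With knockout liver 4 left out, the difference was 0.0570 for the peroxisomal and -0.00669 for the mitochondrial arm. No test was made on these means, since the genes were chosen with results known.

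**Figure D2:**
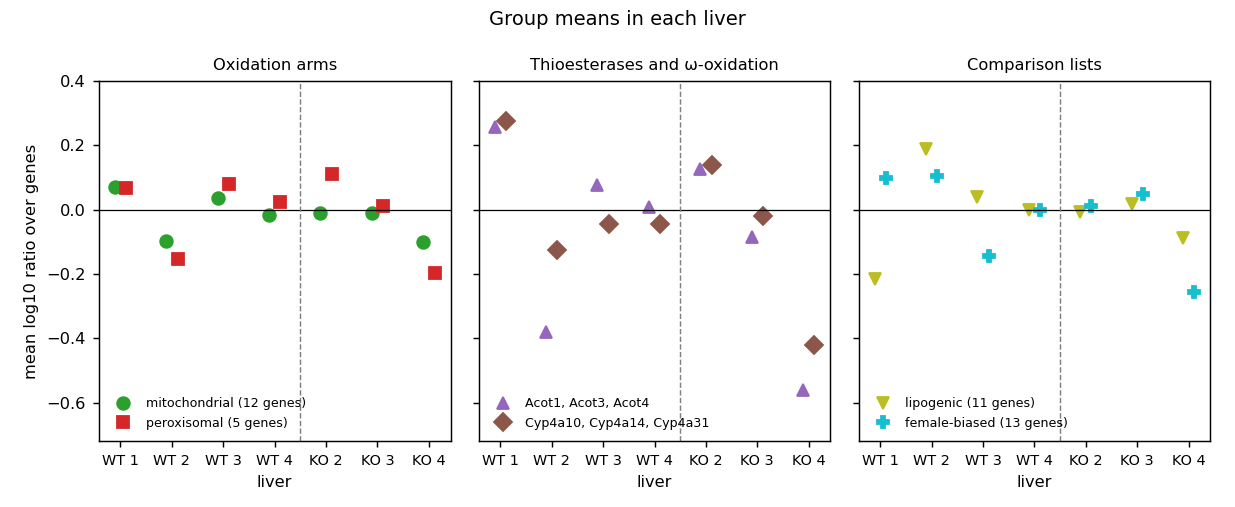
Mean log10 ratio over the genes of a group in each wild-type (WT) and knockout (KO) liver, with 1 point per liver: the oxidation arms at left, thioesterase and ω-oxidation genes in the middle, and lipogenic and female-biased genes at right. The plotted thioesterase mean leaves out Acot2, a choice made after its values were seen, and reads -0.561 in knockout liver 4, against -0.423 for all 4 thioesterases, while lipogenic genes are lowest in wild-type liver 1 and highest in wild-type liver 2. The ω-oxidation mean keeps the flat probe 2 of Cyp4a10, averaged with probe 1. In knockout liver 4 this gives -0.407 for Cyp4a10, against -0.8245 for probe 1 alone.

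Acyl-CoA thioesterases, which split acyl-CoA into the free acid and coenzyme A, had wide ranges, except for Acot2. Acot1, the cytosolic enzyme, read 0.288, -0.509, 0.0919 and -0.000600 in the wild types, and 0.155, -0.0210 and -0.532 in the knockouts. Wild-type livers 1 and 2 were 0.797 apart, 6.26-fold in base 10, whereas the genotypes differed by -0.0999 ± 0.215, with an interval from -0.60 to 0.40. The range of Acot1 among the wild types exceeded that of 99.9% of all genes.

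Acot3, a peroxisomal thioesterase, followed the same order. It read 0.263, -0.402, 0.0695 and 0.0411 in the wild types, and 0.177, -0.134 and -0.735 in the knockouts, where liver 4 was the lowest of all 7. The difference was -0.224 ± 0.226, and 0.0283 without knockout liver 4. Acot4, another peroxisomal thioesterase, differed by -0.164 ± 0.131 and ran from -0.418 in knockout liver 4 to 0.217 in wild-type liver 1. Acot2, the mitochondrial enzyme, stayed between -0.0416 and 0.0297, and its range of 0.0713 was below the median of all genes.

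These 4 genes lie within 72.5 kb of each other on chromosome 12, so neighbours in 1 cluster had very unequal ranges. They are close paralogues, and their probes may share signal, although the values of Acot1 and Acot2 differed by -0.467 in wild-type liver 2 and -0.524 in knockout liver 4. The windows before Acot1, Acot2 and Acot3 are shown to set Acot2, whose 1 probe was flat, beside variable neighbours. A flat probe need not mean a flat transcript, since the 2 probes of Cyp4a10 had ranges of 1.22 and 0.0235. They lie at chr12:84009252-84009501, chr12:83987611-83987860 and chr12:84051894-84052143, all on the + strand and upstream of the genes, and these held neither motif. Acot4, which also had a wide range, is not shown because its window lies within the annotated extent of the gene, and that window did hold AGGTCA:
Acot1: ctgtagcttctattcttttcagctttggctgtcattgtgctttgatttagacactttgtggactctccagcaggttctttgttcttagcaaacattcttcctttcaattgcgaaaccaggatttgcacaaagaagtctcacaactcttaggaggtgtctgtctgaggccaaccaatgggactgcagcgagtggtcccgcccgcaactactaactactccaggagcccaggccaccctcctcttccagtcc
Acot2: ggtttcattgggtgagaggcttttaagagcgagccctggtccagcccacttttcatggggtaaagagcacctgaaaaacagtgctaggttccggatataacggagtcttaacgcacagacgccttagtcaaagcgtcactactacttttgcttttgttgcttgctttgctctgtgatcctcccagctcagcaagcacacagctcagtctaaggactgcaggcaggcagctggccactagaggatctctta
Acot3: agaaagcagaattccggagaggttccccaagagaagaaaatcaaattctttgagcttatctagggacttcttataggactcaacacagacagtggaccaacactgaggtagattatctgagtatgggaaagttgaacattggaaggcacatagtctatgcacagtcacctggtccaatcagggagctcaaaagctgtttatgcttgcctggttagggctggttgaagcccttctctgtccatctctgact
In global alignments, 53.4% of aligned bases were identical between Acot1 and Acot2, 58.6% between Acot1 and Acot3 and 62.4% between Acot2 and Acot3. The windows of Acot1 and Acadm, which are not related, gave 58.8%.

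The Cyp4a genes of ω-oxidation spanned the widest range of all members, in probe 1 of Cyp4a10. That probe read 0.398, -0.214, -0.0362 and 0.0548 in the wild types, and 0.333, -0.0262 and -0.825 in the knockouts. The span of 1.22 is 16.7-fold in base 10 and 2.33-fold if the values are in base 2. Knockout liver 2 was thus near the top and liver 4 at the bottom, and the difference of -0.223 ± 0.263 turned to 0.102 without knockout liver 4. Probe 2 of Cyp4a10 stayed between -0.00570 and 0.0178 and so did not follow probe 1. It was the other member probe whose groups did not overlap, with the knockouts higher by 0.0132 ± 0.0152, a separation over a range of only 0.0235.

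Cyp4a14 read 0.313, -0.0823, -0.109 and -0.0790 in the wild types, and 0.0654, -0.0496 and -0.243 in the knockouts. Wild-type liver 1 was far above the other 6, and knockout liver 4 was the lowest. The difference was -0.0863 ± 0.115, and 0.0144 without wild-type liver 1. Cyp4a31 ranged from -0.612 in knockout liver 4 to 0.314 in wild-type liver 1, with a difference of -0.155 ± 0.193, which was 0.0778 without knockout liver 4. Cyp4a10 and Cyp4a31 are near-identical neighbours on chromosome 4, and their probes cannot be treated as separate readings.

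Bdh1, which interconverts acetoacetate and β-hydroxybutyrate, read higher in the knockouts on average. It read -0.0181, -0.247, 0.119 and 0.0531 in the wild types, and 0.161, 0.0352 and -0.0410 in the knockouts. The groups overlapped, and wild-type liver 2 was the lowest of the 7. The difference was 0.0750 ± 0.0873, with an interval from -0.128 to 0.278, and it was 0.000500 without wild-type liver 2.

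The other PPARα targets did not share 1 direction. Angptl4, a secreted inhibitor of lipoprotein lipase, read 0.0129, -0.0610, 0.109 and 0.12 in the wild types, and 0.306, 0.238 and -0.0377 in the knockouts. Knockout livers 2 and 3 were above every wild type and liver 4 below 3 of them, and the difference was 0.124 ± 0.0836 (limma, adjusted p = 0.884). Without knockout liver 4 it was 0.227 (limma, adjusted p = 0.811, and from 0.785 to 1.00 over the alternatives).

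Fgf21, a fasting hormone of the liver, read 0.0968, -0.0276, 0.00420 and -0.0811 in the wild types, and 0.0704, 0.0549 and -0.00390 in the knockouts. All knockouts lay within the range of the wild types, and the difference was 0.0424 ± 0.0417. It was 0.0753 and 0.0160 without wild-type livers 1 and 4, 0.0274 without knockout liver 2 and 0.0646 without knockout liver 4. Pdk4, the kinase that inhibits pyruvate dehydrogenase, read 0.0954, -0.197, 0.103 and -0.115 in the wild types, and -0.0651, -0.160 and -0.0707 in the knockouts. Its knockouts also lay within the range of the wild types, with a difference of -0.0703 ± 0.0768. It was -0.0290, -0.127 and -0.0264 without wild-type livers 1, 2 and 3 in turn, and -0.0397 without knockout liver 3.

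Vnn1, the pantetheinase of coenzyme A turnover, was highest in wild-type liver 1 and lowest in knockout liver 4. It read 0.261, -0.485, 0.0602 and -0.0857 in the wild types, and 0.00910, -0.219 and -0.646 in the knockouts. The wild types alone spanned 0.746, and the genotype difference was -0.223 ± 0.20, with an interval from -0.689 to 0.242 (limma, adjusted p = 0.884). Without knockout liver 4 it was -0.0427.

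**Figure D3:**
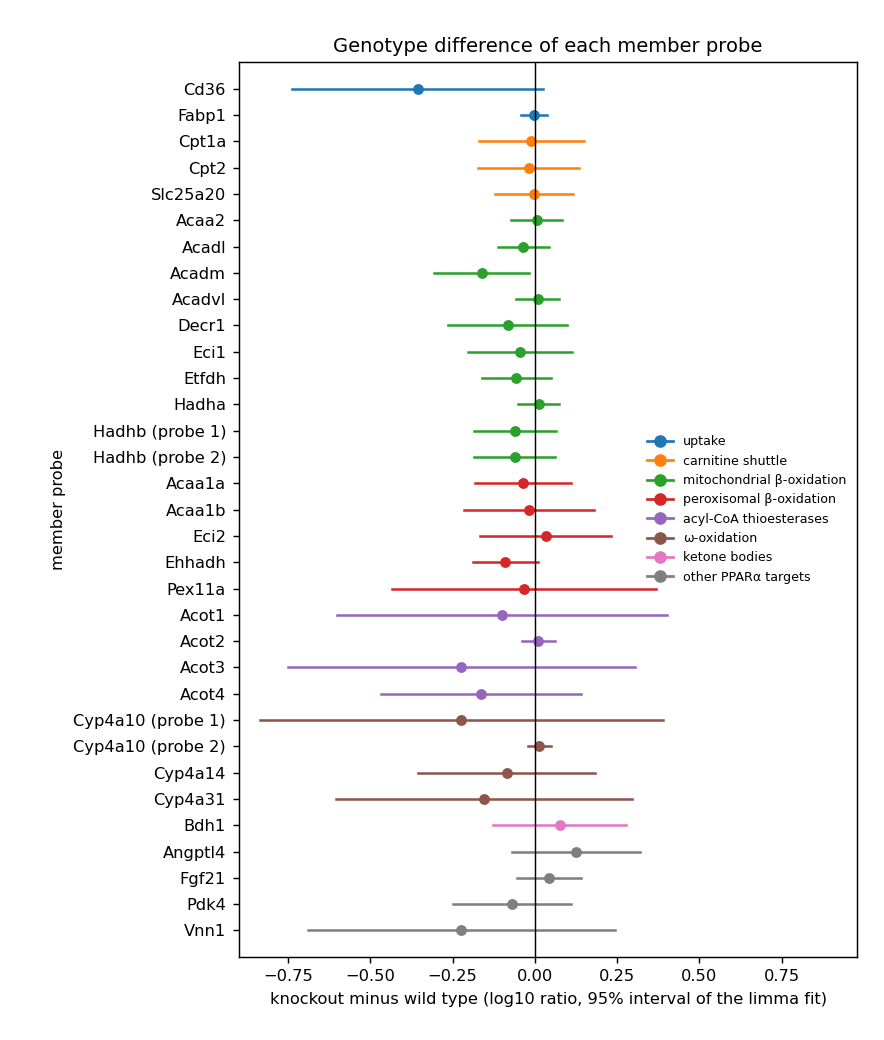
Difference of knockout minus wild type for each of the 33 member probes on the log10 ratio scale (points) with the 95% interval of the limma fit (bars), coloured by role. Only the interval of Acadm, from -0.305 to -0.0171, does not reach 0, and the intervals are widest for Cyp4a10, Acot3, Vnn1 and Acot1.

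The width of the intervals sets what the comparison could show. For Fabp1, Hadha, Acadvl and Acot2 both bounds of the interval lay within 0.0744 of 0. For Cyp4a10, in probe 1, the interval ran from -0.835 to 0.388, which leaves both directions possible. The number of arrays limits the precision, and the signal behind each ratio is not known.

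**Figure D4:**
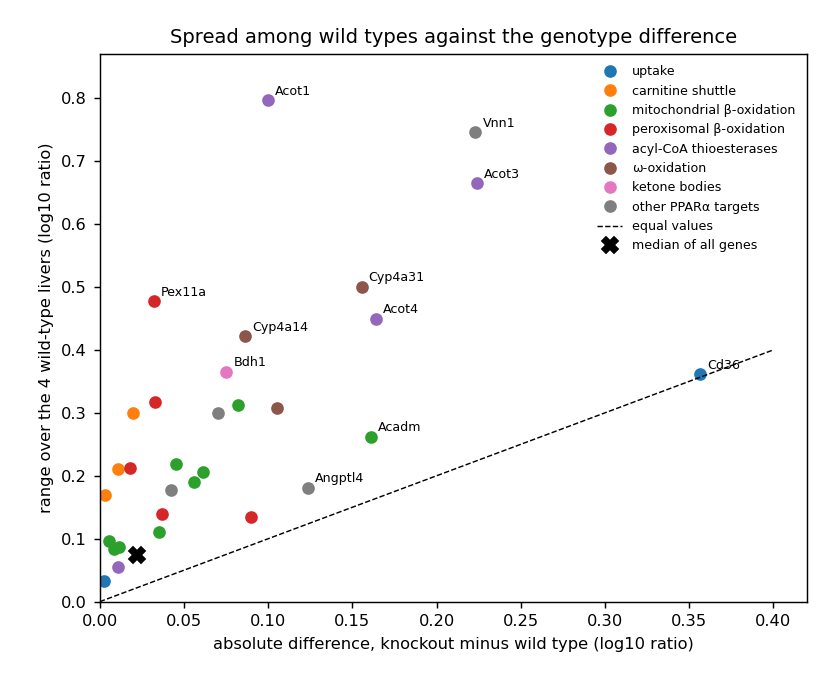
Range over the 4 wild-type livers (vertical axis, log10 ratio) against the absolute difference of knockout minus wild type (horizontal axis, log10 ratio) for the 31 member genes, with probes of a gene averaged. All 31 points lie above the dashed line of equal values, Cd36 closest to it, and the cross marks the median of all genes at 0.0223 and 0.0739.

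The spread among the wild types alone set the members apart from all genes of the array, but a wide spread was not particular to them. Over the 7 livers the median range was 0.226 in 68 other genes of these pathways, against 0.30 in the members and 0.105 in all genes. It ran from 0.173 in other mitochondrial genes to 0.290 in other lipid genes. In the wild types 13 of 31 members had a range above 0.3, against 2.08% of all genes. The median SD of the wild types was 0.107 for the members and 0.0332 for all genes, and that of the knockouts was 0.102 and 0.0336. Without wild-type liver 2 and knockout liver 4 together, 8 members had a range above 0.3, against 3.81% of all genes.

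Other genes of the same pathways were counted from lists chosen by function. Of 77 such genes, 68 were measured, 32 read higher and 36 lower in the knockouts, and 0 passed (limma). Over all genes 43.3% read lower. Leaving out knockout liver 4 moved the difference of list means from -0.0437 to -0.0244 for other peroxisomal genes. It moved from -0.0305 to -0.00421 for other mitochondrial genes, from -0.00309 to 0.0320 for other ω-oxidation genes, and from 0.0404 to 0.0891 for regulators. For other ketone body genes it turned from 0.0304 to -0.0039, and for other lipid genes it moved from -0.0913 to -0.0444. At an unadjusted p under 0.05 there were 7 of 68, where 4.79% of all genes were listed. Other peroxisomal genes read lower in 13 of 16, with a median of -0.0281, among them Hsd17b4, the second bifunctional enzyme (-0.102 ± 0.0498), and Abcd3, a transporter of acyl-CoA into peroxisomes (-0.167 ± 0.0714). Other mitochondrial genes read lower in 7 of 11, with Hsd17b10 at -0.182 ± 0.0647 and Acad10 at -0.0530 ± 0.0189. Of 7 other ω-oxidation genes 6 read higher, among them Cyp4f13, a fatty acid hydroxylase family member (0.0626 ± 0.0339), while Aldh3a2, an aldehyde dehydrogenase of fatty aldehydes, differed by -0.207 ± 0.104.

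Of the other ketone body genes 2 read higher and 3 lower. Slc16a6, a carrier that exports ketone bodies from the liver, read -0.0288, -0.0536, -0.0826 and -0.0648 in the wild types, and 0.154, 0.0450 and 0.397 in the knockouts. All 3 knockouts lay above all 4 wild types, while the groups did not overlap, in either direction, in 5.26% of all probes. The groups also did not overlap in Hsd17b10, Acad10 and Acsl3, lower in the knockouts, and in Slc27a5, higher in the knockouts. Slc16a6 is named because its p was among the smallest of its list. Its difference was 0.256 ± 0.0733 (limma, adjusted p = 0.872). Acat1, the mitochondrial acetoacetyl-CoA thiolase, differed by -0.112 ± 0.0386. Ppara itself differed by 0.0151 ± 0.0457 and stayed between -0.0504 and 0.121 in the 7 livers. Of the 12 regulators 8 read higher, with Ppargc1b, a coactivator, at 0.122 ± 0.0752, and Pparg at -0.0948 ± 0.0507. Among other lipid genes, 9 higher and 8 lower, Acsl3, an acyl-CoA synthetase, differed by -0.165 ± 0.0473 and the lipid droplet gene Cidea by -0.974 ± 0.322. The groups overlapped for Cidea, with wild-type liver 2 at -0.945 below knockout liver 2 at -0.640. Its wild types alone spanned 1.3, and its difference did not pass (limma, adjusted p = 0.872).

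Lists for other states and cell types also differed between livers, and their part in the results was not tested. Lipogenic genes had a mean of -0.215 in wild-type liver 1 and 0.189 in wild-type liver 2, the reverse of the members, with 7 of 11 lowest in the former and 7 highest in the latter. In knockout liver 4 both were low, with the lipogenic mean at -0.0866. Fasting-induced genes of gluconeogenesis averaged -0.0594 and 0.134 in wild-type livers 1 and 2 and 0.0207 in knockout liver 4, but were lowest in wild-type liver 3 (-0.0745) and highest in knockout liver 3 (0.173). Female-biased liver genes averaged -0.256 in knockout liver 4, where 9 of 13 were lowest, against -0.144 to 0.104 in the wild types and 0.0109 and 0.0474 in the other knockouts. Male-biased genes averaged -0.367 in wild-type liver 1 and 0.0517 in knockout liver 4, the ends of their range. Moxd1, at -1.343 and -0.535 in these livers, lay far below the rest and weighed on these means. Of the 10 genes, 7 were lowest in wild-type liver 1 and 4 highest in knockout liver 4. Of 5 listed sex-chromosome genes 2 were measured, Kdm5d and Uty, at -0.0655 and 0.0034 in knockout liver 4. Over the 7 livers they ran from -0.2015 to -0.0242 and from -0.0345 to 0.034. The sex of the mice is not given and was not tested. Macrophage markers averaged 0.119 in knockout liver 4, where 10 of 11 were highest, against -0.232 to -0.0713 in the wild types and -0.115 and -0.171 in the other knockouts. The mean of the hepatocyte markers, of which 8 of 10 were measured, stayed between -0.0640 and 0.0753, while single markers such as Cps1 ran from -0.268 to 0.208. As ratios they do not show that the tissue was liver. The mean of 6 adipocyte markers, a cell type that also expresses Cd36 and Angptl4, stayed between -0.00943 and 0.0714. Of these Pnpla2, a lipase also present in liver, read 0.335, 0.193 and -0.0965 in knockouts 2 to 4. The clock genes averaged -0.0126 to 0.0290. Endothelial markers averaged -0.0340 to 0.0446 over the 7 livers, stellate cell markers -0.0709 to 0.0397 and muscle markers -0.0349 to 0.0564. Bile duct markers reached 0.148 in wild-type liver 2 and lay between -0.0632 and 0.0262 elsewhere, and erythroid genes averaged -0.149 to 0.0660.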

How the data were processed

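The authors deposited 1 log ratio per probe and mouse, in a table with no missing values. The deposited values are taken as log10 ratios, an assumption on which every fold rests; base and direction are not stated, and dye-swapped arrays, which the series' design text mentions, appear merged. Their scaling is not stated in the labels. Probes were named through the platform annotation: 17824 had 1 symbol, 50 several and 5700 were unlisted. Probes with several symbols were named for no gene.

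Knockouts were set against wild types by lmFit and eBayes of limma (version 3.58.1, under R 4.3.3), two-sided, with p-values adjusted by Benjamini-Hochberg over all 23574 probes, or 16468 genes after averaging probes of a gene. The fit was tested on simulated data. Every member is named; 7-liver values are given for 13 members fixed by name, any member at an unadjusted p under 0.05, and the member of widest range in each role, 16 in all. Of the other pathway genes, up to 2 of smallest p per role and Ppara are named, and Slc27a5 because its groups did not overlap. The members and lists were chosen with earlier results of these data known. Alternatives were centring, quantile and scale normalization, a variation filter, robust eBayes, array weights, a replicate block, an ordinary linear model and leaving out each mouse. Start-site windows came from RefSeq tables of GRCm38.p6, and no coordinate of the array was used.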

Additional observations from a re-analysis of the deposited data

Results flagged for a closer look

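Among the 4 wild types, 20 groups of values were screened with Dixon's criterion, which chance exceeds in about 1 group of 20, and 3 exceeded it. Cpt1a in wild-type liver 2 read -0.117, with a gap of 0.844 of the range to the other wild types at 0.0616 to 0.0946. Cyp4a14 in wild-type liver 1 read 0.313, with a gap of 0.929 of the range to the others at -0.109 to -0.0790. Cd36 in wild-type liver 1 read 0.243, with a gap of 0.881 of the range to the others at -0.118 to -0.0753.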

How the results depend on the processing

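No member was called under any of the 15 alternatives of the probe and gene fits, and over all probes 0 to 3 were called, against 1. Same-numbered livers did not deviate together (correlations of -0.236, -0.152 and -0.0965), while differently numbered ones gave -0.197 to 0.285. Deviations from a mean of 3 livers are tied to each other, so this check cannot decide whether the numbers pair the mice. With the replicate number as a replicate block, which leaves wild-type liver 1 out of the difference, differences turned to 0.00677 for Acot1, 0.0104 for Cpt1a, 0.0240 for Cpt2, 0.0144 for Cyp4a14 and 0.0228 for Pex11a. Cpt1a was 0.00201 with array weights. Leaving out single mice gave -0.110 to 0.0638 for Acaa1b, -0.259 to 0.0998 for Acot1, -0.428 to 0.0283 for Acot3, -0.0601 to 0.0583 for Cpt1a, -0.0758 to 0.0240 for Cpt2, -0.476 to 0.102 for Cyp4a10 probe 1, -0.157 to 0.0144 for Cyp4a14 and -0.191 to 0.152 for Pex11a. The count of members lower in the knockouts ran from 11, without knockout liver 4, to 27. The count with a range above 0.3 was 12 to 16 without single livers and 8 without wild-type liver 2 and knockout liver 4 together, an alternative chosen after seeing the data. Signal over background, which would set the precision of each ratio, is unknown.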
